A study of Homo sapiens with 2 samples.

Results

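Chromatin accessibility was examined at 8 genes of cell-cell adhesion: the cadherins CDH1, CDH3, CDH2 and CDH11, the catenins CTNNA1, CTNNB1 and CTNND1, and the epithelial adhesion molecule EPCAM. The genes were taken by name, and the regions examined for each were the gene body and the 20 kb on either side of every transcript start annotated in GENCODE release 44 on hg38. They are 8 of the 19962 protein-coding genes annotated on the autosomes and chromosome X, and their regions held 37 of the 74757 peaks called in the No gRNA library and 37 of the 75217 peaks called in the All gRNA library.

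Classical cadherins are transmembrane proteins whose extracellular domains bind cadherins of the neighbouring cell. Inside the cell, the cadherin tail binds a catenin of the delta type (CTNND1) near the membrane and β-catenin (CTNNB1), which is joined to the actin cytoskeleton through α-catenin (CTNNA1). E-cadherin (CDH1) marks epithelia, N-cadherin (CDH2) and OB-cadherin (CDH11) are known from mesenchymal cells, and the exchange of E-cadherin for N-cadherin is a textbook feature of epithelial-mesenchymal transition (EMT). ZEB1 is a repressor that drives EMT by binding E-boxes, short sites with the letters CAGGTG, and CDH1 is the best known of its targets.

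Both libraries were ATAC-seq libraries, in which the transposase Tn5 inserts adapters into open chromatin, from SUM159, an established cell line of triple negative breast cancer, of the claudin-low, mesenchymal subtype. All cells carried the lentiviral vector pLV-KRAB, which expresses dCas9-KRAB, a Cas9 that binds DNA without cutting it, joined to the repressor domain KRAB. No gRNA cells (1 library) carried no targeting guide, and All gRNA cells (1 library) carried a combination of 4 guides against the ZEB1 promoter. The transduced cells were selected populations of 1 line, and neither group had a replicate.

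With 1 library a group, conditions could not be tested against each other, so p-values are not given and each difference is one between these libraries. The value given for a peak is its summit pileup, the number of extended Tn5 ends over the peak's highest base, which was recovered from the deposited fold enrichment and −log10 p as a whole number for 100% of peaks. The depth of the All gRNA library was 0.743 times that of the No gRNA library, as the ratio of their lowest backgrounds. Ratios of All gRNA to No gRNA pileup were divided by this value, and their 95% exact binomial intervals cover counting error only. A shared peak overlapped a peak of the other library by at least 1 bp, and a one-library peak overlapped none. The median pileup was 20 over all No gRNA peaks and 14 over all All gRNA peaks, against 14 and 11 at the 8 genes. Within 4000 bp of the main start of the targeted gene ZEB1, there were 2 No gRNA peaks, with pileups of 25 and 27, and 0 All gRNA peaks. At any ZEB1 start, peaks covered 1143 bp in No gRNA and 546 bp in All gRNA, so All gRNA kept peaks at other starts of the gene. Promoters of all 6 mesenchymal marker genes (VIM, FN1, SNAI2, TWIST1, ZEB2 and AXL) held peaks in both libraries. Of the 9 epithelial markers, 4 (CLDN7, KRT8, KRT18 and KRT19) also held peaks in both. Another 4 (CLDN3, ESRP1, GRHL2 and OVOL1) held none in either, and CLDN4 held 1 in No gRNA only, which had a pileup of 12. Promoters of the leukocyte genes PTPRC and CD3E held none.

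E-cadherin had 3 All gRNA only peaks and 1 No gRNA only peak, all in its second intron, and no peak at its main promoter in either library. N-cadherin had the opposite balance, with 5 one-library peaks in No gRNA (pileups of 8 to 16) against 2 in All gRNA (9 and 21). Its All gRNA pileup was lower at 7 of its 8 shared peaks after depth scaling, or at 6 when scaled by the median ratio of all shared peaks. Over both libraries, 58.1% of all shared peaks were lower in All gRNA after depth scaling. At least 2 more No gRNA only peaks were found at 9.7% of genes, which were not matched to N-cadherin for region length. The promoters of N-cadherin and of the 3 catenins were open in both libraries. At N-cadherin, CTNNB1 and CTNND1, the shared promoter peak did not pass the call used here (beyond 2-fold, with an interval excluding 1). The CTNNA1 promoter peak was not put to the call, since it overlapped 2 All gRNA peaks. Its ratio to the highest of these was 0.481 (0.208 to 1.02). OB-cadherin had no peak in either library.

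**Figure D1:**
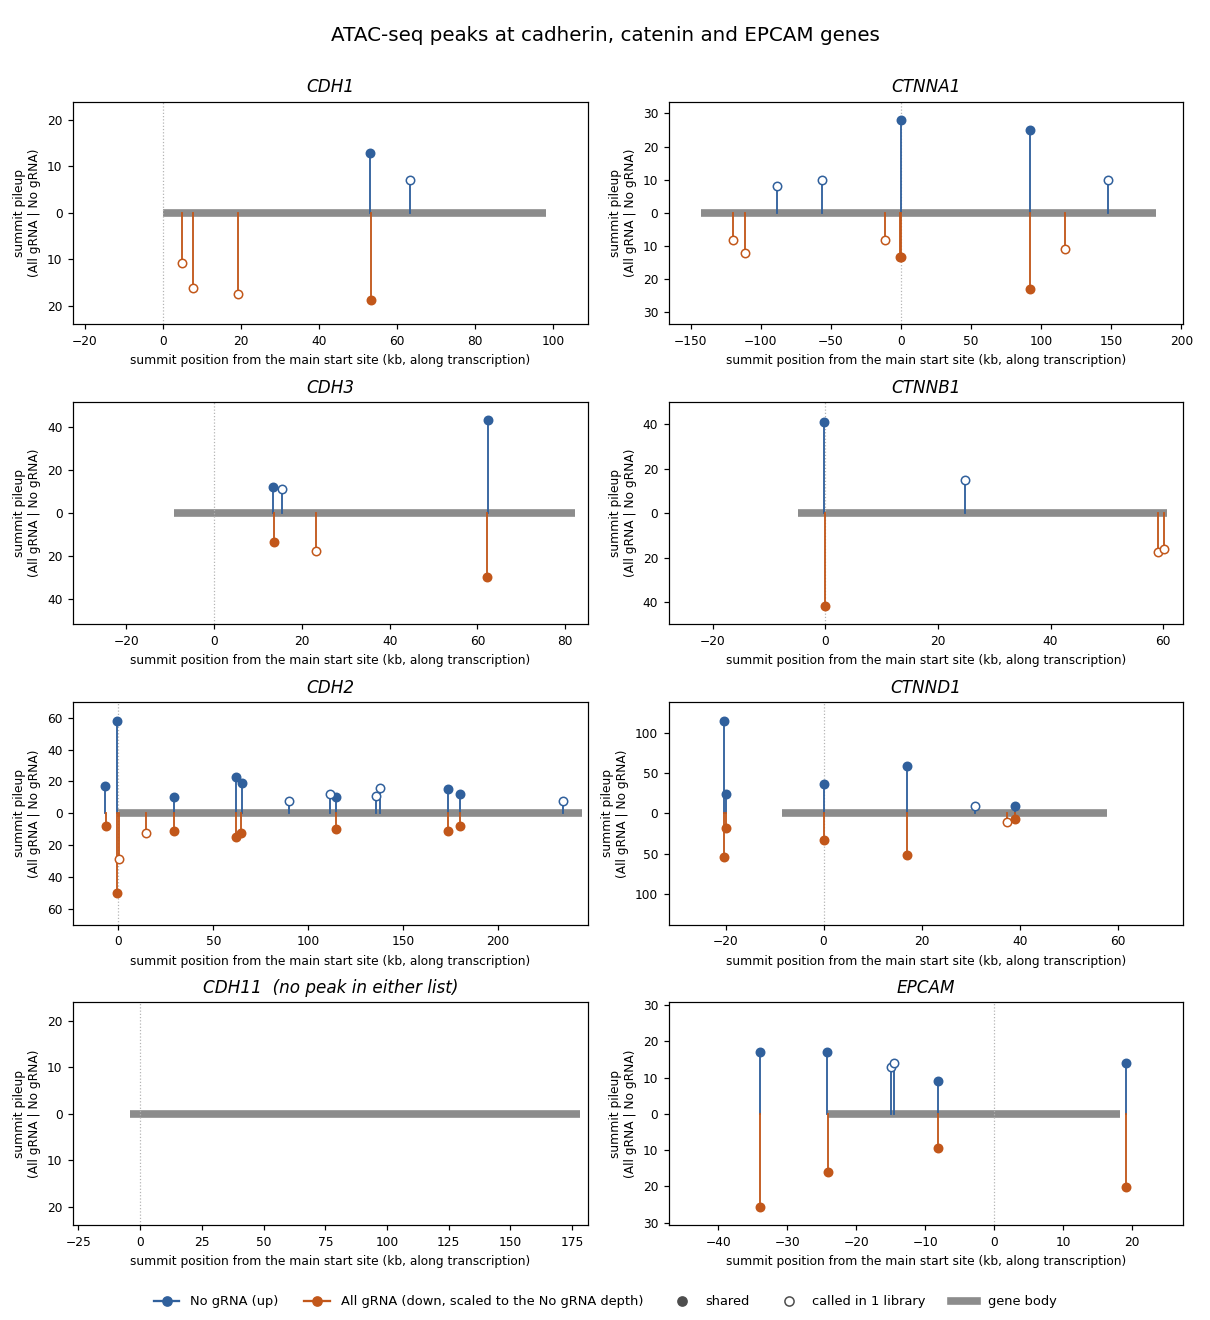
Each panel shows 1 gene, with the distance of each peak summit from the main start site in kb along transcription on the x axis and summit pileup on the y axis. No gRNA peaks point up and All gRNA peaks, scaled to the No gRNA depth, point down; filled points are shared peaks, open points were called in 1 library, and the grey bar is the gene body. The 3 open All gRNA points at CDH1 lie within 19.2 kb of the start, and the open No gRNA points at CDH2 lie 90.0 kb or more from it.

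The sequences at the summits of selected cadherin peaks are given here, most of them called in 1 library only and 1 of them shared. Each is 201 bases of hg38 centred on the summit, on the plus strand, in an intron and free of annotated exons. Capitals mark matches on either strand to CAGGTG, the E-box that ZEB1 is known to bind, to CAGCTG, another E-box, and to TGANTCA, the site of AP-1 factors. The first 3 are the CDH1 peaks called in All gRNA only, the next is the CDH1 peak shared by both libraries (at its All gRNA summit), then the CDH3 peak called in All gRNA only, and last the highest of the CDH2 peaks called in No gRNA only. The other one-library cadherin peaks are not printed, so the motifs shown do not compare the libraries. Of those, the CDH2 peaks at chr18:27942851-27943050 (No gRNA only) and chr18:28162374-28162585 (All gRNA only) hold 1 TGANTCA each. The rest hold none of the 3 motifs.
CDH1 All gRNA only, chr16:68741977-68742177: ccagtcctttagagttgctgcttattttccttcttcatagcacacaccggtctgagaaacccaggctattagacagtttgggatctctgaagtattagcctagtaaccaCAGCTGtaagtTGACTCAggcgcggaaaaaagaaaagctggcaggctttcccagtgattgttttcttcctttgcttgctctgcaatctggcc
CDH1 All gRNA only, chr16:68744923-68745123: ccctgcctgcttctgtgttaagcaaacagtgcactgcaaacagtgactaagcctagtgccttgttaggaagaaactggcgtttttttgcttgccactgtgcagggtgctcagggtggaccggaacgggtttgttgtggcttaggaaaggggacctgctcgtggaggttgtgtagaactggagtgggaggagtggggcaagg
CDH1 All gRNA only, chr16:68756380-68756580: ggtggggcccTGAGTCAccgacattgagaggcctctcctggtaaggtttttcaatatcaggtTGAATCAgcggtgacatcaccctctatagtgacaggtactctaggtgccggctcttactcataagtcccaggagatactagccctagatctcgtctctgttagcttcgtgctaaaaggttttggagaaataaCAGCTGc
CDH1 shared, chr16:68790423-68790623: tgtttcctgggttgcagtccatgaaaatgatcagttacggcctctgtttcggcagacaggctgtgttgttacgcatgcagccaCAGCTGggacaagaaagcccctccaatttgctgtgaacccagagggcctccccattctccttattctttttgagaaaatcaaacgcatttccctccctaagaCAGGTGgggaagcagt
CDH3 All gRNA only, chr16:68668422-68668622: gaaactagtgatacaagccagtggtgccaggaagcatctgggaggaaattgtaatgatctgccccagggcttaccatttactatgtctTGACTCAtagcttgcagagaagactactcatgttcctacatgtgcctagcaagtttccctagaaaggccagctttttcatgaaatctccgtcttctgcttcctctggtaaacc
CDH2 No gRNA only, chr18:28039299-28039499: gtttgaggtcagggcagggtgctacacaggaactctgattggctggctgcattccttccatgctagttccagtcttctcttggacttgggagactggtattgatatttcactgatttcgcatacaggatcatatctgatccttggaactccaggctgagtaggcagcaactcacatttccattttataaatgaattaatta

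CDH1 (ENSG00000039068.20), which encodes E-cadherin, lies on the plus strand at chr16:68737292-68835537, with 10 annotated starts. It had 2 No gRNA and 4 All gRNA peaks, and all 6 lay in intron 2 of the main transcript, a stretch of 63.3 kb (chr16:68738412-68801669). No peak of either library came within 4000 bp of the main start.

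The All gRNA only peak nearest to that start, at chr16:68741985-68742184 and 4785 bp into the gene, had a pileup of 8. The next, at chr16:68744922-68745173, had a pileup of 12, and the one at chr16:68756289-68756773 had a pileup of 13. At the No gRNA depth these came to 10.8, 16.1 and 17.5, whereas a pileup of 5 sufficed for a call in No gRNA at the same background. The −log10 q the authors' caller gave them was 5.67, 10.7 and 11.6, beside a median of 10.1 over all All gRNA peaks.

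None of the 3 holds CAGGTG in its summit window. The nearest to the start holds 1 CAGCTG and 1 TGANTCA, the next holds none of the motifs, and the furthest holds 2 TGANTCA and 1 CAGCTG. The summit of the nearest also lies 403 bp from the start of RNA5SP429, a pseudogene of a ribosomal RNA with many near-identical copies. That start lies outside the peak, and whether reads of the peak are shared with other loci was not tested.

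The shared CDH1 peak, at chr16:68790207-68790660 in No gRNA, had a No gRNA pileup of 13 and an All gRNA pileup of 14, a scaled ratio of 1.45 (0.632 to 3.35). This interval includes 1. Its All gRNA summit window holds a CAGGTG, while the No gRNA window, whose summit was called at another base of the same peak, does not reach it.

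The No gRNA only peak, at chr16:68800498-68800697, lay 63307 bp from the main start and 1141 bp from an internal start. It had a pileup of 7, which came to 5.20 at the All gRNA depth, just over the 4 that sufficed for a call there. Because of that internal start, CDH1 counts as a gene with a promoter peak in No gRNA only, as did 2.92% of protein-coding genes, and its covered promoter length was 200 bp in No gRNA against 0 in All gRNA. Over the whole CDH1 region the direction was the other way, with 654 bp covered by peaks in No gRNA and 1442 bp in All gRNA.

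P-cadherin (CDH3, ENSG00000062038.15), which is expressed in basal epithelium, lies beside CDH1 at chr16:68636189-68727468 on the plus strand. It had 3 peaks in each library, none of them within 4000 bp of a start. In intron 2, the All gRNA only peak at chr16:68668345-68668692 had a pileup of 13, or 17.5 at the No gRNA depth where 5 sufficed, and a −log10 q of 12.8. The No gRNA only peak at chr16:68660650-68660849, also in intron 2, had a pileup of 11, or 8.17 at the All gRNA depth where 5 sufficed. The All gRNA only peak holds 1 TGANTCA in its summit window and no CAGGTG.

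The shared CDH3 peaks did not differ beyond counting error. The one in intron 2, at chr16:68658465-68658947 in No gRNA, had a No gRNA pileup of 12 and an All gRNA pileup of 10, a ratio of 1.12 (0.434 to 2.83). The higher one, at chr16:68707392-68708172 and past the end of the main transcript, had pileups of 43 and 22, a ratio of 0.688 (0.392 to 1.18).

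N-cadherin (CDH2, ENSG00000170558.10) lies on the minus strand at chr18:27932879-28177946 and had more peaks than any other of the 8 genes, 13 in No gRNA against 10 in All gRNA. Its promoter was open in both libraries. The No gRNA promoter peak at chr18:28177168-28178606, with its summit 986 bp upstream of the main start, had a pileup of 58. The All gRNA peak over it, at chr18:28177158-28178273, had a pileup of 37, a ratio of 0.858 (0.552 to 1.32).

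A further All gRNA peak, at chr18:28176829-28177098, lay just inside the gene, 229 bp from the main start, and had a pileup of 21. It had no partner in No gRNA, where its scaled pileup of 28.3 exceeded the 16 that sufficed for a call at this higher background. The covered CDH2 promoter length was 1967 bp in No gRNA against 1386 bp in All gRNA. The No gRNA value holds the promoter peak of 1439 bp and No gRNA only peaks near an internal start, while the All gRNA value is made up of the 2 peaks at the main promoter. The RefSeq entry for this promoter in GRCh38.p14, 250 bases before and 50 after the start, holds 0 matches to CAGGTG, which 19.9% of 21571 RefSeq promoters hold. The entries for CTNNA1 and CTNNB1 hold 0 as well, and the table had none for CDH1, CDH3, CDH11, CTNND1 and EPCAM.

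Of the 8 CDH2 peaks that were shared, 7 had a ratio below 1, against 58.1% of all shared peaks, and 6 did when scaled by the median ratio of all shared peaks, as did 24010 of all 48041. The summed pileup over the 8 was 164 in No gRNA against 92 in All gRNA, a ratio of 0.755 (0.578 to 0.98), against a median of 0.88 over 16498 genes with a shared peak, 21.6% of which were at or below the CDH2 value. Divided by the median ratio of all shared peaks instead of the depth, the CDH2 sum gave 0.813 (0.623 to 1.06), an interval that includes 1. Without the promoter peak, the other 7 peaks summed to 106 in No gRNA against 55 in All gRNA, a ratio of 0.698 (0.495 to 0.976), or 0.752 (0.533 to 1.05) under the median scaling, where the interval again includes 1. The lowest single ratio was at the peak 6862 bp upstream of the main start (chr18:28183831-28184145), with pileups of 17 and 6 and a ratio of 0.475 (0.153 to 1.26).

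Among the one-library peaks of CDH2, 4 of the 5 in No gRNA lay in intron 2 (chr18:28013910-28147672, 134 kb) and none of the All gRNA only peaks did. The highest, at chr18:28039237-28039518, had a pileup of 16 and a −log10 q of 14.3, and its scaled pileup of 11.9 was over the 4 that sufficed in All gRNA. The others in intron 2 were at chr18:28041516-28041841 (pileup 11, −log10 q 7.15), chr18:28065538-28065772 (pileup 12, −log10 q 8.72) and chr18:28087015-28087214 (pileup 8, −log10 q 5.23). The fifth, at chr18:27942851-27943050 beyond the main transcript, had a pileup of 8 and a −log10 q of 5.23. All but the highest were thus below the median −log10 q of 13.7 over all No gRNA peaks. The second All gRNA only peak of CDH2, at chr18:28162374-28162585 in intron 1, had a pileup of 9, or 12.1 at the No gRNA depth where 5 sufficed. Its −log10 q was 7.42, and that of the All gRNA only peak at the promoter was 5.98. The highest No gRNA only peak holds 0 matches to the 3 motifs, while the one at chr18:27942851-27943050 holds 1 TGANTCA.

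OB-cadherin (CDH11, ENSG00000140937.14) lies on the minus strand at chr16:64943753-65126112, with 19 annotated starts. Its region of 202 kb held no peak in No gRNA and none in All gRNA. The lowest pileup called anywhere was 5 in No gRNA against 4 in All gRNA, so fainter sites than these would not be listed. Of all protein-coding genes, 9.67% had no peak in either library, and of the 1761 whose region was at least as long as that of CDH11, 33 (1.87%) had none.

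α-catenin (CTNNA1, ENSG00000044115.21), on the plus strand at chr5:138610967-138935034, had 5 No gRNA and 7 All gRNA peaks. At its main promoter, No gRNA had 1 peak at chr5:138753040-138753886 with a pileup of 28. All gRNA had 2 peaks over the same stretch, at chr5:138753005-138753214 and chr5:138753360-138753596, each with a pileup of 10. The higher No gRNA pileup came to 20.8 at the All gRNA depth, and the ratio of 10 to 28 was 0.481 (0.208 to 1.02), although the summits lie at different bases. The All gRNA peak upstream of the start, with its summit 399 bp from it, holds 3 CAGGTG in its summit window, 1 of them overlapping a TGANTCA, the highest number at any peak of the 8 genes. Over all its starts, the covered CTNNA1 promoter length was 1263 bp in No gRNA against 688 bp in All gRNA.

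Outside the main promoter, the shared CTNNA1 peak in intron 7 (chr5:138845087-138845618) had a No gRNA pileup of 25 and an All gRNA pileup of 17, a ratio of 0.915 (0.464 to 1.76). The one-library peaks of CTNNA1 were faint in both libraries. The 3 in No gRNA had pileups of 8 (chr5:138664793-138665003), 10 (chr5:138696633-138696922) and 10 (chr5:138900748-138900952). The 4 in All gRNA had pileups of 6 (chr5:138633169-138633371), 9 (chr5:138641930-138642246), 6 (chr5:138742190-138742399) and 8 (chr5:138870176-138870416). Their scaled pileups were between 5.94 and 7.43 for No gRNA and between 8.07 and 12.1 for All gRNA, over the 4 and 5 that sufficed in the other library. Some lay within 4000 bp of another CTNNA1 start and count in its covered promoter length. These were chr5:138664793-138665003 (1095 bp from a start) and chr5:138900748-138900952 (3548 bp) in No gRNA, and chr5:138870176-138870416 (23 bp) in All gRNA.

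β-catenin (CTNNB1, ENSG00000168036.18), which also acts in Wnt signalling, lies on the plus strand at chr3:41194741-41260096. Its promoter peak (chr3:41199028-41199747 in No gRNA) had a No gRNA pileup of 41 and an All gRNA pileup of 31, a ratio of 1.02 (0.617 to 1.66), so the libraries did not differ there beyond counting error. The No gRNA only peak at chr3:41224097-41224529 lies in intron 2 of the main transcript and 348 bp from an internal start, with a pileup of 15 and a −log10 q of 11.5. This peak made the covered CTNNB1 promoter length 1153 bp in No gRNA against 673 bp in All gRNA. The All gRNA only peaks at chr3:41258386-41258860 and chr3:41259532-41259941 had pileups of 13 and 12 and lay near the far end of the gene model, 59054 and 60211 bp from the main start and past the main transcript.

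The catenin of the delta type (CTNND1, ENSG00000198561.16), which holds cadherins at the membrane, lies on the plus strand at chr11:57753243-57819546. Its promoter peak (chr11:57761739-57762023 in No gRNA) had pileups of 36 and 24 in No gRNA and All gRNA, a ratio of 0.897 (0.512 to 1.55). The peak in intron 1 (chr11:57778544-57779078), higher than that of the promoter, had pileups of 59 and 38, a ratio of 0.867 (0.561 to 1.32). The peak in intron 6 (chr11:57800777-57800985) had pileups of 9 and 5, a ratio of 0.748 (0.197 to 2.48). One-library peaks were at chr11:57792388-57792760 in No gRNA (pileup 9, intron 3) and at chr11:57799182-57799430 in All gRNA (pileup 8, intron 6).

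Within 20 kb of a CTNND1 start lies the start of another gene, SELENOH, which encodes a selenoprotein, and the peak there (chr11:57741253-57741678) was the only shared peak of the 22 compared that passed the call. It had a No gRNA pileup of 115 and an All gRNA pileup of 40, a ratio of 0.468 (0.318 to 0.676). Scaled by the median ratio of all shared peaks, the ratio was 0.504 (0.343 to 0.729), which no longer reached 2-fold. The 5 shared peaks of the CTNND1 region summed to 243 and 120, a ratio of 0.665 (0.529 to 0.83). The 3 that were not at another gene's start summed to 104 and 67, a ratio of 0.867 (0.628 to 1.19), a choice made after seeing the values.

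EPCAM (ENSG00000119888.11), a homophilic adhesion molecule of epithelial cells outside the cadherin family, lies on the plus strand at chr2:47345158-47387601. Neither library had a peak within 4000 bp of its main start at chr2:47369311. An alternative start 24 kb upstream, shared with the divergent transcript EPCAM-DT, held a peak in both libraries (chr2:47345020-47345302 in No gRNA), with pileups of 17 and 12 and a ratio of 0.95 (0.414 to 2.11). The covered promoter length of EPCAM, all of it at this start, was 283 bp in No gRNA against 293 bp in All gRNA.

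The other shared peaks of the EPCAM region had ratios of 1.05 (0.331 to 3.16), 1.44 (0.649 to 3.22) and 1.5 (0.740 to 3.08). The last of these, at chr2:47335184-47335664, lies at the start of BCYRN1, a non-coding RNA derived from an Alu repeat, whose reads may be shared with other copies. The No gRNA only peaks at chr2:47354293-47354537 and chr2:47354713-47354964, between the upstream and the main start, had pileups of 13 and 14, or 9.66 and 10.4 at the All gRNA depth where 5 sufficed. All gRNA had no peak of its own at EPCAM. The 4 shared peaks summed to 57 in No gRNA against 53 in All gRNA, a ratio of 1.25 (0.844 to 1.85).

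**Figure D2:**
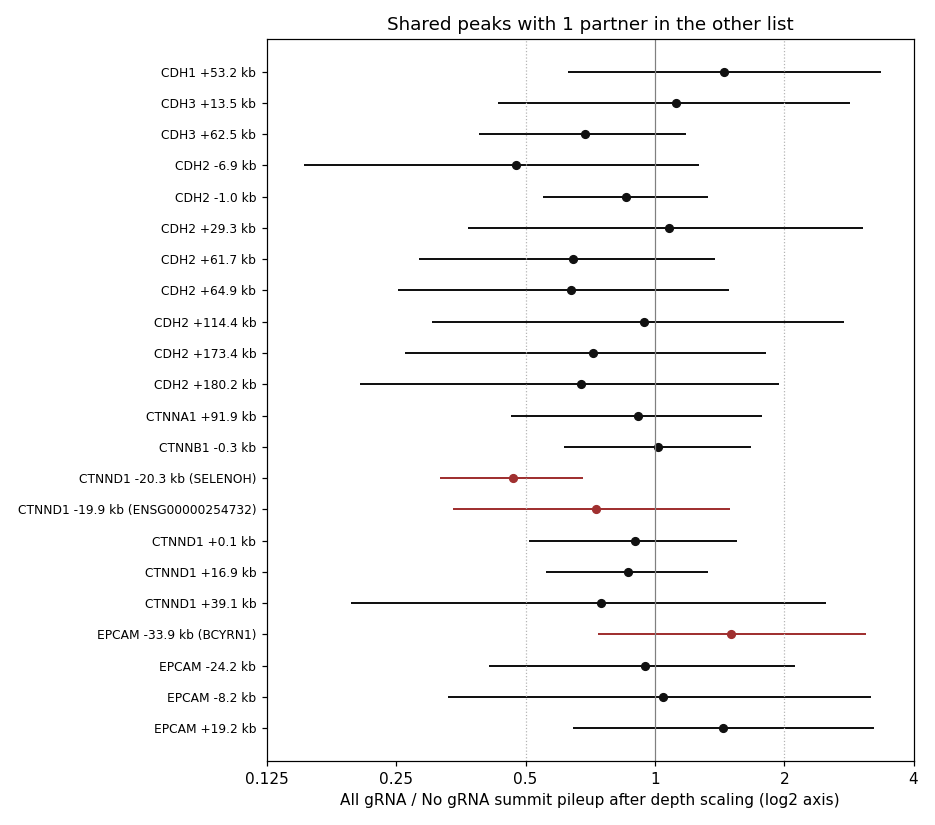
Ratio of All gRNA to No gRNA summit pileup after depth scaling, on a log2 x axis, for the 22 shared peaks with exactly 1 partner, each named by its gene and the distance of its summit from the main start. Lines are 95% exact binomial intervals for counting error, dotted lines mark 2-fold either way, and red points lie at the start of the gene named in brackets. The interval of the SELENOH peak alone excludes 1, and the points of CDH2 lie below 1 at 7 of 8 peaks (6 when scaled by the median ratio of all shared peaks).

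Across the 8 genes, 22 shared peaks had exactly 1 partner and their ratios ran from 0.468 to 1.5, with a median of 0.882 against 0.928 over 48041 such peaks. Of the 22, 15 were below 1, against 58.1% of all shared peaks (13 of the 22 when scaled by the median ratio). In introns, 8 of the 11 were below 1, with no share over all intronic peaks to set beside this count. The call was passed upwards by 0 and downwards by 1, where 2.44% and 3.27% of all shared peaks passed it. A single call among 22 peaks is near the background share.

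One-library peaks made up 14 of the 37 No gRNA peaks (37.8%, exact 95% interval 22.5 to 55.2) and 13 of the 37 All gRNA peaks (35.1%, 20.2 to 52.5). Over all peaks the shares were 24.7% in No gRNA and 23.8% in All gRNA, where peaks were also higher, as given above. One-library peaks were faint across the libraries, with median pileups of 11 (No gRNA) and 8 (All gRNA) beside 25 and 18 at shared peaks. At the 8 genes, they had medians of 10.5 and 9. After depth scaling, all 14 and all 13 reached the pileup that sufficed for a call in the other library, but so did 99.5% of the 16746 No gRNA only peaks and 16210 of the 16211 All gRNA only peaks (100.0%) of the whole lists, so this does not set the 8 genes apart. Of these peaks, 9 of the No gRNA ones and 8 of the All gRNA ones lay in an intron of the main transcript.

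More All gRNA only than No gRNA only peaks were found at 3 of the 8 genes (CDH1, CTNNA1 and CTNNB1), against 22.8% of all protein-coding genes, and more No gRNA only peaks at 2 (CDH2 and EPCAM), against 29.3%. A margin of at least 2 peaks, as CDH1 had towards All gRNA, was found at 6.14% of genes. A margin of at least 2 towards No gRNA, as CDH2 and EPCAM had, was found at 9.7%. These shares are over genes of every region length, with a median of 3 peaks in each library, whereas CDH2 had 13 and 10. They were not matched for region length or number of peaks, so they do not say how rare such margins are at genes like CDH2. The opposite balance of E-cadherin and N-cadherin was not tested, since each gene gives 1 value per library.

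Promoter windows of 4000 bp either side of any start held a peak in both libraries at 5 of the 8 genes (CDH2, CTNNA1, CTNNB1, CTNND1 and EPCAM), against 71.3% of all protein-coding genes. They held one in neither library at CDH3 and CDH11, against 23.2%. None held one in All gRNA only, against 2.56%. With the main start alone, the promoters of CDH2 and the 3 catenins were open in both libraries and those of CDH1, CDH3, CDH11 and EPCAM in neither.

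The length of promoter covered by peaks was shorter in All gRNA at 5 of the 8 genes, against 52.2% of all protein-coding genes, longer at EPCAM, against 24.4%, and equal at 2. The median difference, All gRNA minus No gRNA, was −155 bp over the 8 genes, beside −11 bp over all protein-coding genes. Among genes with a promoter peak it was −340 bp over 6 of the 8, beside −71 bp over all such genes. The whole All gRNA list also covered less, at 28.2 Mb against 30.3 Mb, and the part of depth in these lengths was not tested.

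**Figure D3:**
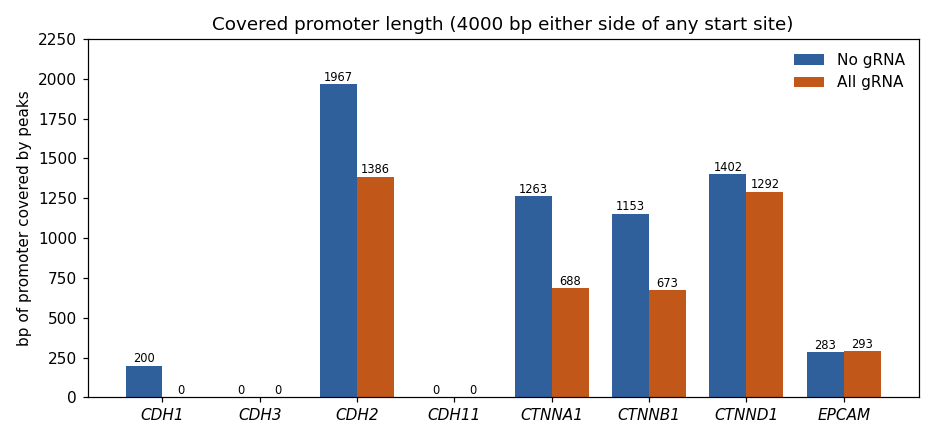
Bars give, for each gene, the bp covered by peaks within 4000 bp either side of any annotated start, in No gRNA (blue) and All gRNA (orange), with the value above each bar. CDH2, CTNNA1, CTNNB1 and CTNND1 have shorter bars in All gRNA, EPCAM has 283 and 293 bp, and CDH3 and CDH11 have 0 in both.

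The wider families were read in the same way. Of 18 classical cadherin genes, 9 had a promoter peak in both libraries, 6 in neither, 3 in No gRNA only (CDH1, CDH10 and CDH20) and 0 in All gRNA only. Over all protein-coding genes, these shares were 71.3%, 23.2%, 2.92% and 2.56%. CDH10, a cadherin of the nervous system, had No gRNA promoter peaks with pileups of 13 and 7, and CDH20 had one with a pileup of 8. The CDH20 peak lay in an intron, 218423 bp from its main start, and that of CDH1, with a pileup of 7, lay 63307 bp from its own. Both count through other annotated starts. The covered length was shorter in All gRNA at 11 of the 18 and longer at 1, with a median difference of −63 bp. Over all protein-coding genes it was shorter at 52.2% and longer at 24.4%.

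Of 10 catenin genes, 8 had promoter peaks in both libraries and 2, CTNNA2 and CTNND2, in neither. Covered length was longer in All gRNA at 4 of these 10 and shorter at 4, so the shorter covered promoters of CTNNA1, CTNNB1 and CTNND1 were not the rule of their family. Of 16 genes of adherens junctions and EPCAM partners, such as the nectins, vinculin and afadin, 15 had promoter peaks in both libraries.

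Among the marker lists, the keratin gene KRT8 had a shared peak near an alternative start with a No gRNA pileup of 66 and an All gRNA pileup of 16, a ratio of 0.326 (0.176 to 0.57), the only one past the call. ESR1 and PGR, the hormone receptor genes of luminal cells, each had a faint promoter peak in No gRNA only, with pileups of 8 and 9. The ESR1 peak lay 1905 bp from the main start of its gene. The PGR peak lay in an intron, 80394 bp from the main PGR start, and counts through another annotated start. FOXA1 and GATA3 had promoter peaks in both libraries. The endothelial genes PECAM1 and CDH5 had promoter peaks in both libraries.

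CAGGTG was present in the summit window of 0 of the 14 No gRNA only peaks and 0 of the 13 All gRNA only peaks of the 8 genes. Shared peaks held it at 0 of 23 in No gRNA and at 2 of 24 in All gRNA, the upstream CTNNA1 promoter peak and the CDH1 peak printed above. Over the whole lists it was in 11.6% of No gRNA windows, 13.1% of All gRNA windows and 16.4% of the windows of All gRNA only peaks. TGANTCA was in 6 of the 13 All gRNA only peaks and 6 of the 14 No gRNA only peaks of the 8 genes, against 32.3% and 27.1% of one-library peaks of each list. CAGCTG was in 2 of these 13, both at CDH1, and in 1 of the 14, against 11.0% and 12.3%. No match in a window says only that the letters are not in those 201 bases.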

How the data were processed

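Per the study's methods, the authors used fastp for trimming and Bowtie2 for alignment to hg38, and discarded duplicates and reads from mitochondria or from regions on an exclusion list. Peaks were called for each library by itself with MACS2, without a control. Versions are not given in the sources used here. The deposited lists give each peak's fold enrichment over local background (a ratio), its −log10 p and −log10 q, and a score, which was not used. The shortest peak was 200 bp in both deposited lists.

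Summit pileup and background were solved from the deposited fold and −log10 p under the Poisson model of the caller, to a tolerance of 0.001 on the −log10 p or 1e-05 of it, and the steps were tested on simulated data. Depth was set by the ratio of the lowest backgrounds (0.743). Ratios carry exact Clopper-Pearson intervals. Both ends of a fragment count, so intervals cover counting error only and are too narrow. Starts came from GENCODE release 44 and promoter sequences from RefSeq. The 8 genes and the lists were chosen with earlier results of these data known. All peaks of the genes called in 1 library, at the main promoter or past the call were named, with list genes that had a promoter peak in 1 library only or a shared one past the call. Some members of the lists are not reported here. Alternatives were other windows, overlaps, thresholds, folds and scalings. Python 3.11.15, numpy 2.4.6, pandas 2.3.3, scipy 1.17.1, pysam 0.24.0 and matplotlib 3.10.9 were used.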

Additional observations from a re-analysis of the deposited data

How the results depend on the processing

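No paired analysis was possible because there was 1 library per group, which also leaves no library to leave out. Of 97 alternative values, 82 kept within 1.5 times the count, or within the interval. Scaled by the median ratio of shared peaks, 2 of the 22 ratios crossed from below to above 1 (at CDH2, 114409 bp into the gene, from 0.942 to 1.01, and at the upstream EPCAM start, from 0.95 to 1.02), neither of them past the call. With a −log10 q of at least 10, one-library peaks fell to 2 in No gRNA and 3 in All gRNA, and shared All gRNA peaks to 10, since most one-library peaks were below that value. The promoter peak in No gRNA only, at CDH1, was lost (0 genes) with windows of 1000 or 10000 bp, with the main start alone, and with a −log10 q of at least 5. Windows of 10000 bp gave 1 gene with a promoter peak in All gRNA only, 1 with none, and covered lengths longer in All gRNA at 2 and equal at 1. The main start alone gave 4 genes with none. The 1 shared peak called lower became 0 when scaled by the median ratio of shared peaks and, in an alternative added after seeing the data, 0 without peaks within 1000 bp of another gene's start, which also moved the summed ratio of CTNND1 from 0.665 to 0.867.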
